A study of Danio rerio with 7 samples.

Results

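The genes described here are 9 zebrafish genes known as transcriptional targets of p53, namely mdm2, cdkn1a, ccng1, gadd45aa, gadd45ba, sesn1, baxa, phlda3 and tp53inp1. They were chosen by symbol. The symbol baxa belongs to 2 Ensembl genes, so 10 of the 29567 genes in the deposited tables carried a member's symbol.

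All 7 libraries were of RNA from whole zebrafish larvae, aged 15 days post fertilization, of a transgenic line with CD36 overexpression. CD36 brings long-chain fatty acids into cells, and no group lacked the transgene. The normal-diet group (labelled 12%) had 3 libraries, from fish 1, 2 and 4, and served as the study's control. The high-fat group (labelled 24%) had 2 libraries, from fish 2 and 4. The third group had the same high-fat diet and was exposed to CACF at 40 µg/ml, with 2 libraries, from fish 2 and 4. Feeding on either diet began at 5 days post fertilization with 4 meals a day, and the exposure in E3 buffer ran overnight from 4 pm to 9 am. The labels do not spell out CACF, do not give the promoter that drives CD36, and do not say whether a library is 1 larva or a pool or whether the fish were of separate clutches. The p-values below therefore measure only the spread between these libraries.

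p53 is a transcription factor that is stabilised by DNA damage and other stresses and then raises genes that halt the cell cycle, repair DNA or start apoptosis. Its level is kept low by Mdm2, a ubiquitin ligase whose own gene p53 activates, which closes a negative feedback loop. Several targets also answer to other signals in mammals, such as inflammatory signals for GADD45 genes and FOXO factors for sestrin genes.

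The whole reads behind the normalized counts numbered 12699552 to 22543693 per library. Of the 7 libraries, normal-diet fish 1 and CACF fish 2 were least like the rest. Their median correlations with the other 6 libraries, over log2 values of the tested genes, were 0.877 and 0.858, where the other 5 libraries had 0.918 to 0.930. Over 20 immediate early genes the summed TPM was 2633 in normal-diet fish 1 and 1706 in CACF fish 2, and 281 to 481 in the other 5 libraries. Over 12 heat shock genes it was 1354 and 206 in these libraries, and 59.9 to 77.7 in the other 5. Over 20 cell division genes it was lowest in normal-diet fish 1, at 105, and highest in CACF fish 2, at 629.6. Marker genes of muscle, liver, pancreas, lens, retina, neurons, gut, skin and leukocytes were all detected in every library, while the haemoglobin gene hbba1 was listed at 0 throughout. The other haemoglobin marker, hbaa1, was above 0 only in CACF fish 4 and high-fat fish 2. The 4 lens markers summed to 6169 TPM in normal-diet fish 1 and to 44.0 to 85.0 in the others. The 4 gut markers summed to 341 TPM in normal-diet fish 1 and to 8.58 to 75.3 in the others. The 4 pancreas markers summed to 5.73 and 40.9 TPM in CACF fish 2 and 4, and to 62.9 to 617 in the other 5. In RNA of whole larvae, fewer cells that express a gene and less RNA per cell cannot be told apart.

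None of the 10 p53 target genes passed in any comparison at an adjusted p of 0.05, where 0% of all genes tested passed for high-fat against normal diet, 0.148% for CACF against normal diet and 0.0143% for CACF against high-fat diet. The test was limma on log2(normalized count + 1), with Benjamini-Hochberg adjustment over all 20906 genes that had at least 10 normalized counts in at least 2 libraries. All 10 passed that filter. On simulated reads this test missed most 2-fold and 4-fold changes, so a lack of calls does not show a lack of change. In normalized counts normal-diet fish 1 was the highest of the 7 libraries for 8 of the 10 genes, and for 21.2% of all genes tested. The exceptions were mdm2 and the lesser of the baxa genes. CACF fish 2 was the lowest of the 7 for 5 of the 10, against 26.2% of all genes. High-fat fish 2, the library with the fewest reads, was the lowest for 4 of the 10, against 16.7% of all genes. In TPM other libraries were also above normal-diet fish 1 for sesn1, tp53inp1, phlda3 and the other baxa gene.

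**Figure D1:**
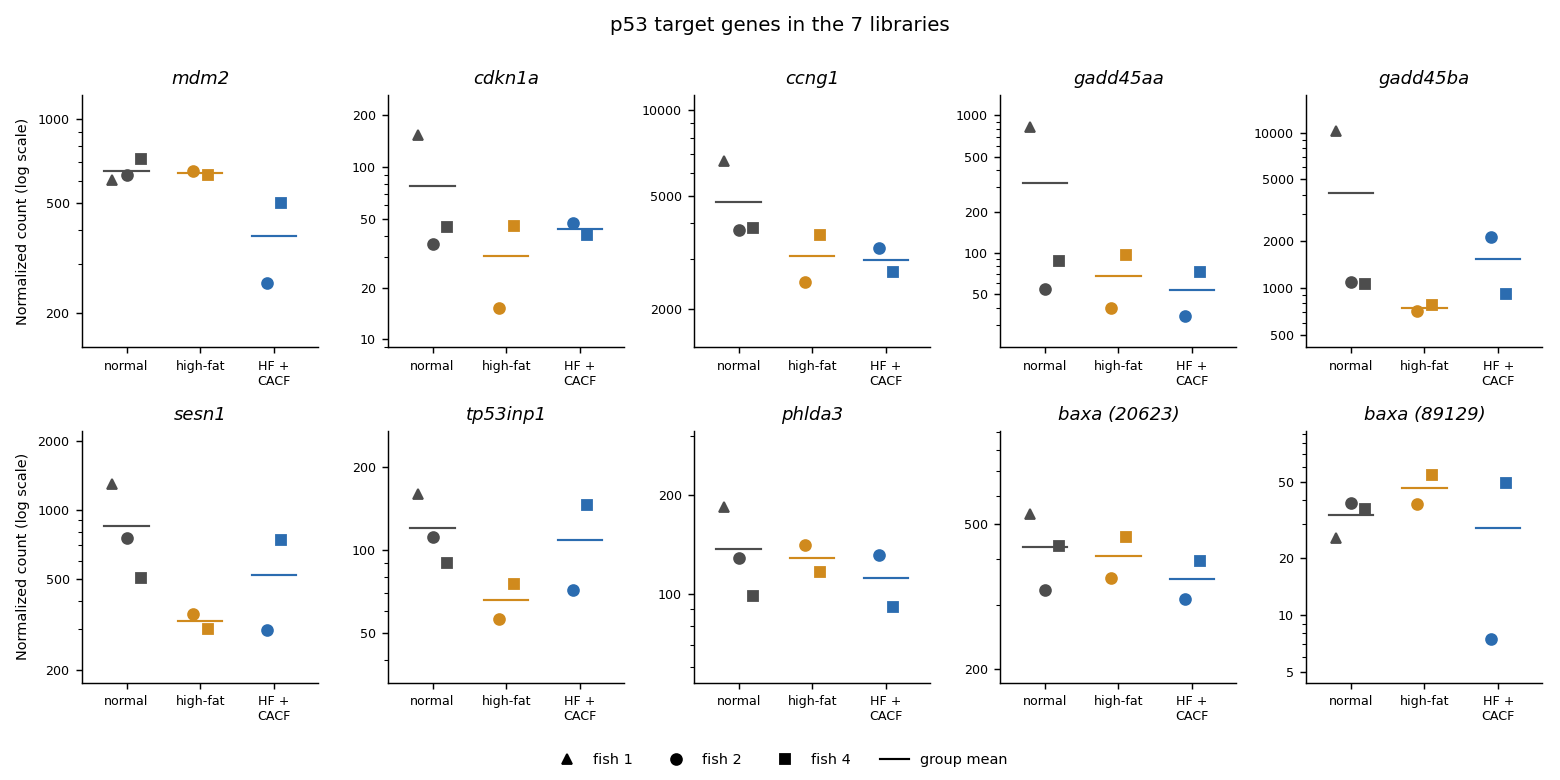
Normalized counts (log scale) of the 10 p53 target genes in each of the 7 libraries, by diet group, with marker shape for fish number and a line at each group mean; the 2 baxa genes carry the last 5 digits of their identifiers. Normal-diet fish 1 (triangle) is the highest point for 8 of the 10 genes, most clearly for gadd45aa and gadd45ba, while mdm2 is lowest in the CACF libraries.

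A feedback regulator of the set was mdm2. This gene (ENSDARG00000033443, GRCz11 chromosome 4, 23125689 to 23136195, plus strand) encodes the ubiquitin ligase that marks p53 for degradation. It had 604, 629 and 717 normalized counts in normal-diet fish 1, 2 and 4, 652 and 630.4 in high-fat fish 2 and 4, and 256 and 500.2 in CACF fish 2 and 4. Both CACF libraries lay below all 5 others in these counts, and the normal and high-fat libraries overlapped. The share of all genes with both CACF libraries below all 5 others was not computed. Of the 10 genes mdm2 showed the smallest difference between the high-fat and the normal diet, with a log2 fold change of -0.02 ± 0.31 (SE) and a 95% confidence interval of -0.71 to 0.68. With CACF it was 1.81-fold lower than in the normal-diet libraries (log2 fold change -0.85 ± 0.31, limma adjusted p = 0.307) and 1.79-fold lower than on the high-fat diet (-0.84 ± 0.34, adjusted p = 0.275). The value against the normal diet was -0.37 without CACF fish 2 and -1.34 without CACF fish 4. Its size therefore rested on which CACF library was kept. In TPM CACF fish 4, at 15.9, lay above normal-diet fish 1 at 12.6 and high-fat fish 2 at 15.3. The TPM log2 fold changes with CACF were -0.61 against the normal and -0.54 against the high-fat diet. The mitochondrial share of reads was 28.2% and 20.9% in the CACF libraries and 7.74% to 17.8% in the other 5. Its part in the mdm2 values was not tested.

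Of the genes of cell cycle arrest, cdkn1a (ENSDARG00000076554, chromosome 22, 603382 to 607812, minus strand) encodes p21, which inhibits cyclin-dependent kinases. It had 154, 35.7 and 44.7 normalized counts on the normal diet, 15.3 and 45.5 on the high-fat diet and 47.4 and 40.2 with CACF. Normal-diet fish 1 was 3.25-fold above the next highest library, high-fat fish 2 was the lowest, and the other 5 lay between 35.7 and 47.4. No group was separated from another.

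ccng1 (ENSDARG00000076667, chromosome 14, 22129096 to 22140213, plus strand) encodes cyclin G1, which in mammals brings a phosphatase to Mdm2. The gene was also listed for p53 feedback. It had 6644, 3786 and 3869 normalized counts on the normal diet, 2490 and 3654 on the high-fat diet and 3278 and 2692 with CACF. All 4 libraries of the high-fat diet, with or without CACF, lay below the 3 normal-diet libraries, though the gap between the nearest of them, 3654 and 3786, was small. The log2 fold changes against the normal diet were -0.61 ± 0.31 for the high-fat diet (limma adjusted p = 0.785) and -0.63 ± 0.31 for CACF (adjusted p = 0.411), and -0.34 and -0.37 without normal-diet fish 1. These 2 comparisons share their control libraries.

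The GADD45 proteins bind stress kinases and proteins of the cell cycle and are named for their rise on growth arrest and DNA damage. gadd45aa (ENSDARG00000043581, chromosome 2, 10280645 to 10284572, plus strand) had 824, 54.3 and 87.7 normalized counts on the normal diet, 39.5 and 96.1 on the high-fat diet and 34.9 and 72.4 with CACF. Normal-diet fish 1 was 11.6-fold above the mean of the other 2 normal-diet libraries, while the other 6 libraries spanned 2.75-fold and overlapped. gadd45ba (ENSDARG00000027744, chromosome 11, 6456146 to 6457748, plus strand) had 10201, 1105 and 1059 normalized counts on the normal diet, 710.2 and 778 on the high-fat diet and 2148 and 922 with CACF. Normal-diet fish 1 was again the highest, 9.43-fold above the mean of the other 2, and CACF fish 2 was second. These were also the 2 libraries with the highest summed immediate early TPM. The part of this in the result was not tested.

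A ratio of at least 3 between normal-diet fish 1 and the mean of the other 2 normal-diet libraries was found for gadd45aa, gadd45ba and cdkn1a, and for 6.83% of all genes tested (computed there with 1 count added). For ccng1, sesn1, tp53inp1, phlda3 and the main baxa gene the ratio ran from 1.39 to 2.07, and for mdm2 it was 0.897. The zebrafish genome has further GADD45 genes. The 4 others in the list of pathway genes are given here, chosen after their values were seen. gadd45bb had 990.4 normalized counts in normal-diet fish 1 and 62.9 to 176 in the other 6 libraries, while gadd45ab had 337.5 against 150.4 to 238. gadd45ga had 1348 against 462 to 1169, and gadd45gb.1 was at its lowest in normal-diet fish 1, at 194. In normalized counts normal-diet fish 1 was the highest library for 5 of the 6 GADD45 genes. In TPM normal-diet fish 4 was above it for gadd45ga, at 64.4 against 54.45.

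**Figure D2:**
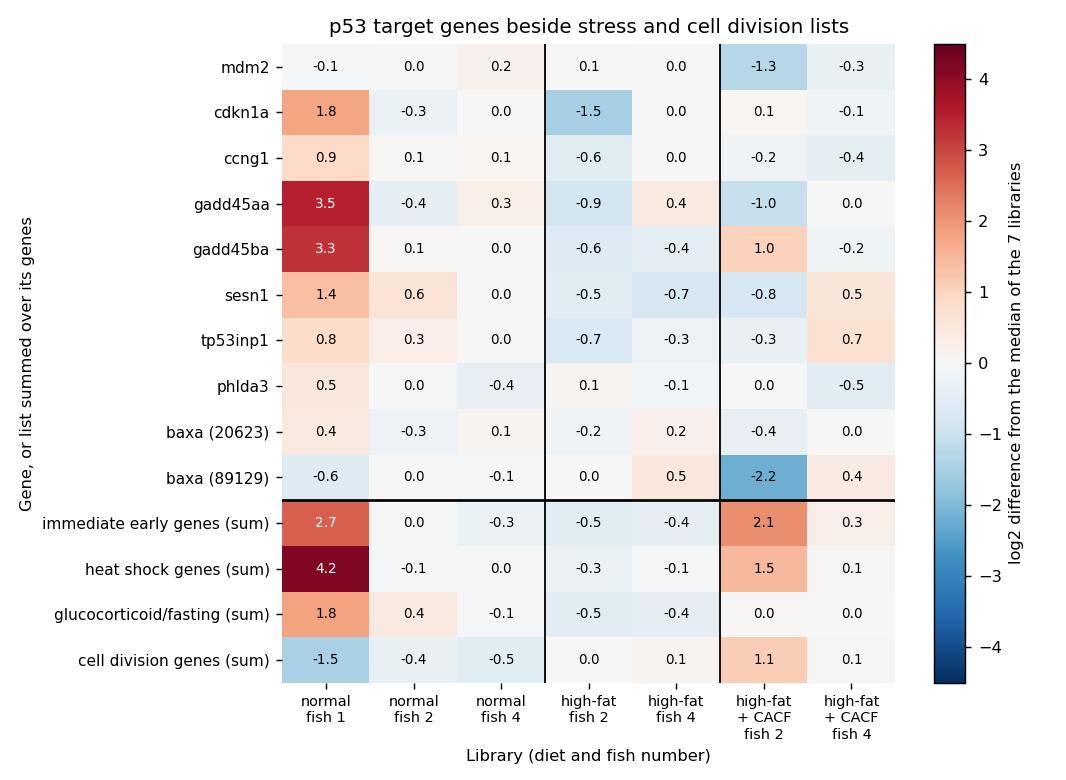
Each cell gives the log2 difference of a library from the median of the 7 libraries, for normalized counts of the 10 p53 target genes (above the line) and for the TPM summed over 4 lists of other genes (below it; sesn1 is also in the glucocorticoid and fasting list). Normal-diet fish 1 is high for gadd45aa, gadd45ba and cdkn1a and for the immediate early, heat shock and glucocorticoid lists, and low for cell division genes.

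Of the genes of metabolic stress and autophagy, sesn1 (ENSDARG00000020693, chromosome 20, 32152355 to 32231157, plus strand) encodes a sestrin, which restrains mTORC1 signalling. It had 1301, 754 and 503 normalized counts on the normal diet, 352 and 303 on the high-fat diet and 298.5 and 734 with CACF. Both high-fat libraries lay below all normal-diet libraries, CACF fish 2 was the lowest of the 7, and CACF fish 4 lay within the normal-diet range. It was 2.42-fold lower in the high-fat than in the normal-diet libraries (log2 fold change -1.27 ± 0.47, limma adjusted p = 0.785), and the value was -0.91 without normal-diet fish 1. In TPM the same comparison gave -0.67. There normal-diet fish 2 was the highest library, at 138 TPM, and normal-diet fish 1 had 88.3.

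tp53inp1 (ENSDARG00000028017, chromosome 16, 40560622 to 40569769, plus strand) encodes a nuclear protein that in mammals promotes p53-dependent cell death and autophagy. It had 159.9, 112 and 90.2 normalized counts on the normal diet, 56.1 and 75.4 on the high-fat diet and 71.5 and 146 with CACF. The high-fat libraries lay below the normal-diet libraries, and the CACF libraries overlapped both groups. The log2 fold change of high-fat against normal diet was -0.84 ± 0.43 (limma adjusted p = 0.785) and -0.62 without normal-diet fish 1.

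Of the genes of apoptosis, phlda3 (ENSDARG00000037804, chromosome 23, 5756442 to 5759242, minus strand) encodes a lipid-binding protein that in mammals holds back Akt. It had 184, 129 and 98.7 normalized counts on the normal diet, 140.3 and 117 on the high-fat diet and 131 and 91.4 with CACF, and all groups overlapped. Its 95% confidence intervals were -0.90 to 0.79 for high-fat against normal diet and -1.12 to 0.57 for CACF against normal diet.

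baxa encodes Bax, which opens the outer mitochondrial membrane in apoptosis. The 2 genes of this name lie side by side on the minus strand of chromosome 3, at 37766473 to 37773800 (ENSDARG00000089129) and 37776489 to 37785873 (ENSDARG00000020623). The split of reads between such copies is uncertain, since the way they were counted is not stated. ENSDARG00000020623 had 532.5, 329 and 437 normalized counts on the normal diet, 354.5 and 461 on the high-fat diet and 311 and 397 with CACF. ENSDARG00000089129 had 25.5, 38.7 and 36.3, then 38.25 and 54.8, then 7.48 and 49.7. The groups overlapped in every comparison for both. CACF fish 2 was the lowest library for both, and the log2 fold change of the lesser copy for CACF against normal diet was -0.71 with it and 0.58 without it.

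On the per-length TPM scale, which is meant for comparing levels of different genes, gadd45ba and ccng1 had the highest values of the 10 on the normal diet. They were at 159.9 ± 178 TPM (SD, n = 3) and 142 ± 17.8 TPM. The order of these 2 is not resolved, since gadd45ba ran from 50.1 to 365 TPM over the 3 libraries. sesn1 followed with 108.5 ± 26.2, then mdm2 with 19.2 ± 5.75, baxa (ENSDARG00000020623) with 13.3 ± 0.863, gadd45aa with 13.1 ± 15.6, tp53inp1 with 6.32 ± 1.23, phlda3 with 5.46 ± 1.47 and cdkn1a with 3.85 ± 2.33 TPM. The second baxa gene was near 1, at 0.940 ± 0.336 TPM. Neighbours in this order had overlapping libraries except at 2 steps, from sesn1 to mdm2 and from cdkn1a to the second baxa gene. The place of sesn1 is uncertain, since its reads per TPM differed between libraries. It had 1481 reads for 88.3 TPM in normal-diet fish 1 and 276 reads for 67.5 TPM in high-fat fish 2. In normalized counts, which are not scaled for length, sesn1 (503 to 1301) and mdm2 (604 to 717) overlapped on the normal diet. On the high-fat diet (n = 2) the order began with ccng1 at 97.4 ± 28 TPM, sesn1 at 66.6 ± 1.31 and gadd45ba at 36.0 ± 2.29. With CACF (n = 2) it began with ccng1 at 107 ± 14.5, gadd45ba at 84.2 ± 46.8 and sesn1 at 60.2 ± 45.8, and neighbours among these 3 overlapped.

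The comparison of the high-fat with the normal diet asks what the diet changed in this line. Of the 10 genes, 9 had a negative log2 fold change, with a median of -0.72, where the median over all genes tested was -0.05. Without normal-diet fish 1 the median over the 10 was -0.25. 4 of the 10, ccng1, gadd45ba, sesn1 and tp53inp1, were lower in both high-fat libraries than in all 3 normal-diet libraries, where 14.1% of all genes tested were. 0 of the 10 passed in limma, edgeR or DESeq2, where each called 0% of all genes. 1 of the 10, sesn1, had an unadjusted limma p under 0.05, against 6.04% of all genes, and edgeR and DESeq2 each gave 2 of the 10, where they gave 1345 and 1548 of the 20906 genes. In the authors' deposited DESeq2 table for this comparison, the lowest adjusted p among the 10 was 0.439, for gadd45aa at a log2 fold change of -2.25. In limma the value of gadd45aa was -1.35, and -0.16 without normal-diet fish 1. That table had 60 of 21375 genes (0.281%) under 0.05.

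**Figure D3:**
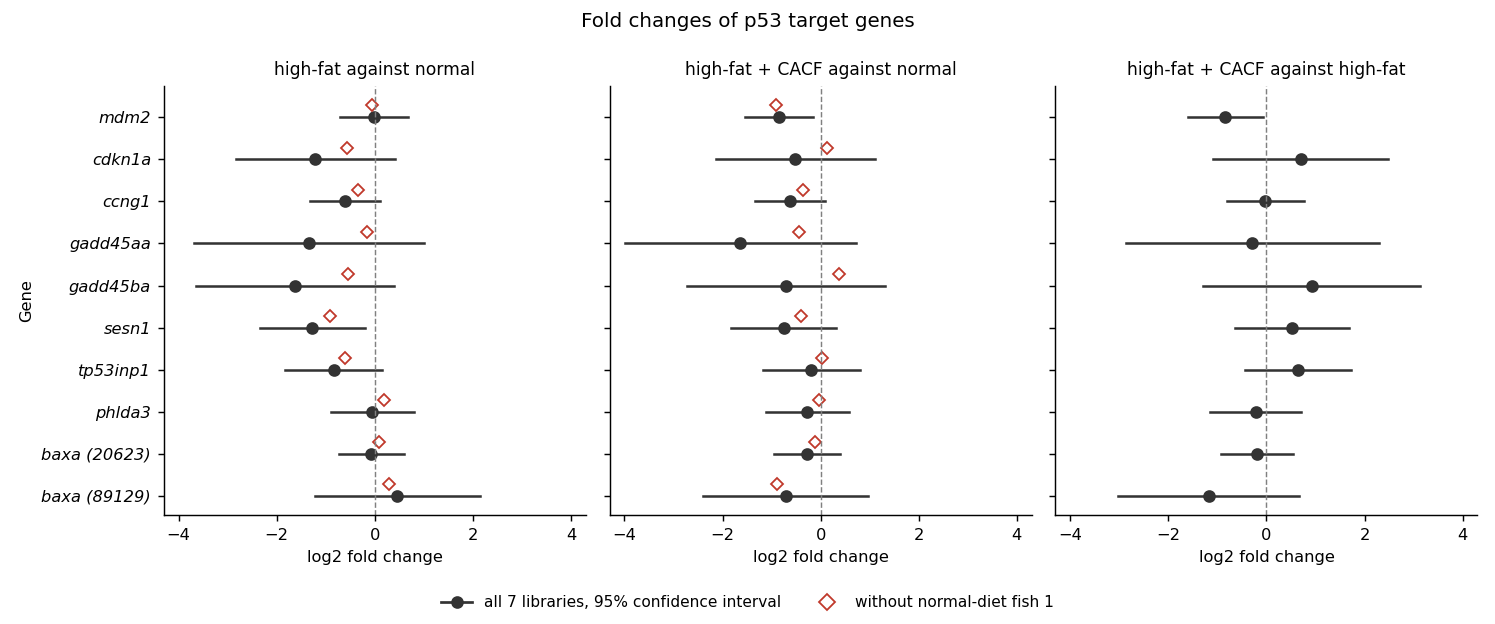
Log2 fold changes of the 10 p53 target genes on log2(normalized count + 1), with 95% confidence intervals from limma (filled), and the same fold change without normal-diet fish 1 (open, for the 2 comparisons that use the normal diet). For 2 of the 3 comparisons only mdm2 has an interval below 0, and for high-fat against normal diet only sesn1; no gene passed after adjustment.

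For the high-fat diet with CACF against the normal diet, all 10 log2 fold changes were negative. They ran from -1.63 for gadd45aa to -0.19 for tp53inp1, with a median of -0.67 against -0.00054 over all genes tested. Without normal-diet fish 1 the median was -0.24, and gadd45ba (0.38), cdkn1a (0.12) and tp53inp1 (0.03) turned positive. In normalized counts 2 of the 10, ccng1 and mdm2, were lower in both CACF libraries than in all normal-diet libraries, against 16.7% of all genes. 0 of the 10 passed in limma, edgeR or DESeq2, where these called 0.148%, 0.0191% and 4.10% of all genes with an adjusted p. 1 of the 10, mdm2, had an unadjusted limma p under 0.05, against 13.7% of all genes, so that share was near the background. In the authors' deposited DESeq2 table for this comparison the lowest adjusted p among the 10 was 0.127, for gadd45aa at a log2 fold change of -2.58. In limma the value of gadd45aa was -1.63, and -0.45 without normal-diet fish 1. That table had 278 of 20803 genes (1.34%) under 0.05.

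CACF was also compared within the high-fat diet, 2 libraries against 2. 4 of the 10 log2 fold changes were positive (gadd45ba, cdkn1a, tp53inp1 and sesn1) and 6 negative, with a median of -0.11 against -0.01 over all genes. gadd45ba was higher in both CACF libraries (log2 fold change 0.92 ± 0.97, limma adjusted p = 0.710), where 24.8% of all genes were higher without overlap. The value was 0.31 without CACF fish 2 and 1.53 without CACF fish 4. In normalized counts mdm2 was lower in both CACF libraries, where 23.2% of all genes were. 0 of the 10 passed in limma, edgeR or DESeq2, where these called 0.0143%, 0% and 5.47% of all genes with an adjusted p. 1 of the 10, mdm2, had an unadjusted limma p under 0.05 against 15.9% of all genes. For sesn1 the sign depended on the unit, with 0.52 in normalized counts and -0.38 in TPM.

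The Mdm2 relative mdm4, which also holds p53 in check (chosen after its values were seen), had 2041 and 2432 normalized counts with CACF and 2537 to 3968 in the other 5 libraries. Its log2 fold changes with CACF were -0.50 ± 0.25 against the normal and -0.65 ± 0.27 against the high-fat diet (limma adjusted p = 0.414 and 0.295). Of all genes 16.7% and 23.2% were lower without overlap in these comparisons. The further genes listed for p53 feedback, ppm1da, ppm1db and rchy1, had values of 0.04, 0.26 and 0.004 against the normal diet. Against the high-fat diet they had -0.28, 0.07 and -0.20. In TPM normal-diet fish 1 was the lowest library for mdm4, at 36.0, against 43.7 and 52.8 with CACF.

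A wider list held 63 further genes of the pathway by role, of which 58 were found in the tables and 57 passed the filter (tp73 did not). 0 of the 57 passed in limma in any comparison. Median log2 fold changes over the 57 were -0.13 for high-fat against normal diet, -0.03 for CACF against normal diet and -0.05 for CACF against high-fat diet, where the medians over all genes were -0.05, -0.00054 and -0.01. Without normal-diet fish 1 the first 2 were 0.00784 and 0.0956, and in TPM (54 genes) the 3 medians were -0.06, 0.22 and 0.19, so their signs were not settled. Unadjusted p-values under 0.05 numbered 3, 6 and 10 of the 57, against 6.04%, 13.7% and 15.9% of all genes, which is near the background. Lower without overlap were 8 of the 57 for CACF against normal and 11 for CACF against high-fat diet. Higher without overlap were 6 and 11. Of all genes 16.7% and 23.2% were lower, and 16.3% and 24.8% higher, so the list did not stand out. By role, repair genes (7 tested) had the median farthest from 0 with CACF, at -0.46 against the normal and -0.82 against the high-fat diet, with 6 of 7 and 5 of 7 below 0. In TPM these medians were -0.19 (4 of 7 below 0) and -0.27 (5 of 7), and other roles lay farther from 0, so the order of roles depended on the unit. Regulators of p53 (14 tested) were above 0 in 11 of 14 for both comparisons with the normal diet, which share their controls, with medians of 0.24 and 0.27, and of 0.12 and 0.16 without normal-diet fish 1. Other apoptosis genes (15 tested) were below 0 in 13 of 15 on the high-fat against the normal diet (median -0.31, and -0.13 without normal-diet fish 1).

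**Figure D4:**
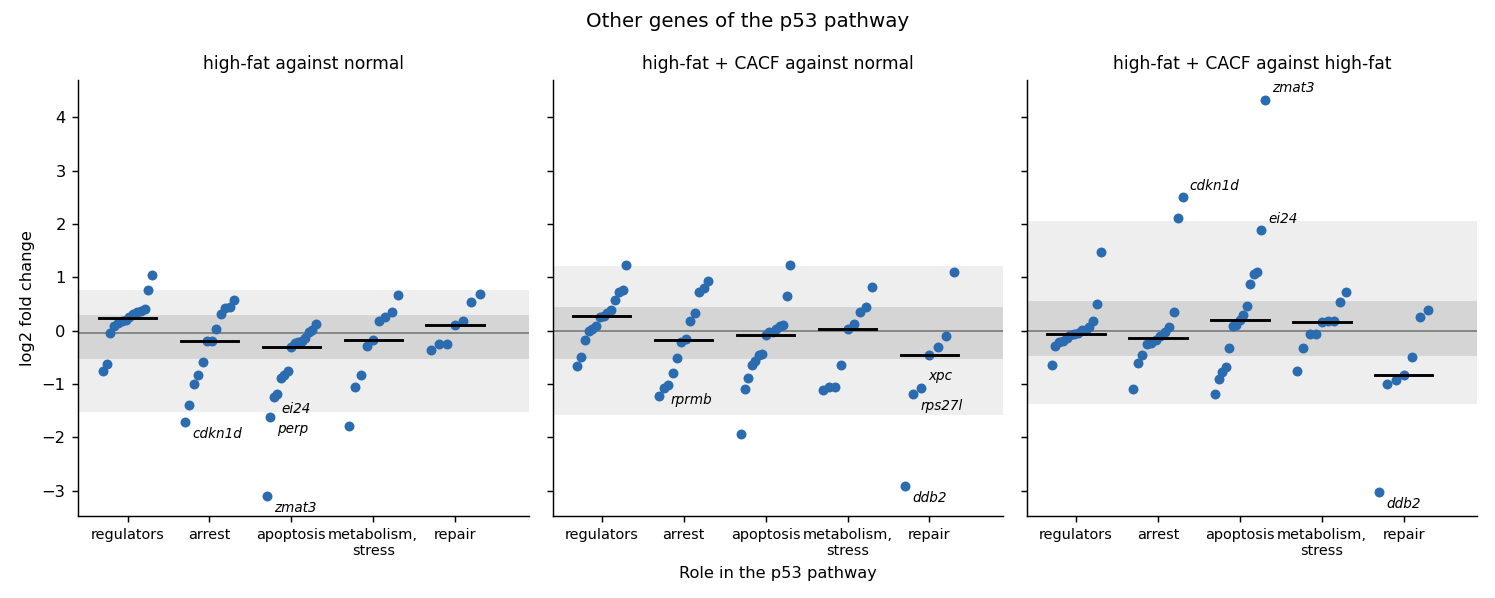
Log2 fold changes of 57 further genes of the p53 pathway by role (points, with a black line at the median of each role), against the middle 50% (dark band) and 90% (light band) and the median (line) of all genes tested. The 4 genes with the smallest p in each comparison are named. ddb2 lies below the 90% band in both comparisons of CACF, and none of the 57 genes passed after adjustment in limma with all 7 libraries.

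ddb2, which encodes the subunit that finds ultraviolet damage for nucleotide excision repair, had the smallest p of the wider list for CACF against normal diet. It had 1443, 1764 and 1644 normalized counts on the normal diet, 1921 and 1554 on the high-fat diet and 84.0 and 537 with CACF. Both CACF libraries lay below all others, with CACF fish 2 the lower. The log2 fold change was -2.92 ± 0.63 against the normal diet (limma adjusted p = 0.147) and -3.02 ± 0.68 against the high-fat diet (adjusted p = 0.116). Without CACF fish 2 the values were -1.58 and -1.69, and without CACF fish 4 they were -4.25 and -4.35. Each of these fits left a lone CACF library, so the group's own spread could not be seen. With all 7 libraries DESeq2 called ddb2 in both comparisons (adjusted p = 0.00177 and 0.00272), while edgeR called it in neither (adjusted p = 0.277 and 0.174). In these 2 comparisons DESeq2 called 4.10% and 5.47% of all genes to which it gave an adjusted p. Of the wider list it called 2 of 52 and 4 of 55, which is near that background.

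xpc, which encodes a damage sensor of the same repair pathway, had 437, 571 and 430.1 normalized counts on the normal diet, 423 and 381 on the high-fat diet and 197 and 260.4 with CACF. Its CACF libraries also lay below all others in these counts. In TPM CACF fish 4, at 6.02, lay above normal-diet fish 4 at 5.37 and high-fat fish 2 at 5.16. The log2 fold change was -1.07 ± 0.27 against the normal diet (limma adjusted p = 0.201, DESeq2 adjusted p = 0.030) and was -0.55 in TPM. rps27l, which encodes a ribosomal protein paralog, had 752, 397 and 755 normalized counts on the normal diet, 493 and 527 on the high-fat diet and 214 and 336 with CACF, and rprmb, a gene of the reprimo family of cell cycle inhibitors, had 69.4, 101 and 103, then 100.7 and 83.7, then 55.7 and 32.2. In these counts both were lower in the CACF libraries than in all others. Their log2 fold changes against the normal diet, -1.18 ± 0.35 and -1.07 ± 0.41, did not pass in limma (adjusted p = 0.253 and 0.321). The value of rprmb was -0.68 without CACF fish 4. In TPM rprmb overlapped, with CACF fish 2 at 3.735 and normal-diet fish 1 at 3.02.

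In ei24, cdkn1d and zmat3 both CACF libraries lay above both high-fat libraries, and none of these passed in the limma fit of group means. Such a separation was found for 11 of the 57 further genes and for 24.8% of all genes tested. ei24, whose product sits in the endoplasmic reticulum, had 44.8, 95.3 and 60.7 normalized counts on the normal diet, 31.9 and 21.7 on the high-fat diet and 101 and 100.2 with CACF. Its log2 fold change for CACF against high-fat diet was 1.89 ± 0.49 (limma adjusted p = 0.138, DESeq2 adjusted p = 0.0277). cdkn1d, a gene of the same inhibitor family as cdkn1a, had 353, 139 and 33.7, then 34.4 and 37.2, then 222 and 194, with a value of 2.5 ± 0.88 in that comparison (limma adjusted p = 0.227, DESeq2 adjusted p = 0.0317). zmat3, which encodes a zinc finger RNA-binding protein, had only 0 and 2 reads in the high-fat libraries, against 57 and 34 with CACF and 18, 27 and 10 on the normal diet, and no fold is given for it. In that same comparison DESeq2 called zmat3 (adjusted p = 0.0115), where it called 5.47% of all genes to which it gave an adjusted p. perp, a membrane protein gene of apoptosis and epithelial adhesion, had 1413, 409 and 507 on the normal diet, 135 and 344 on the high-fat diet and 544.5 and 372 with CACF, with a log2 fold change for high-fat against normal diet of -1.62 ± 0.57 (limma adjusted p = 0.785), which was -1.07 without normal-diet fish 1 and -0.95 without high-fat fish 2.

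**Figure D5:**
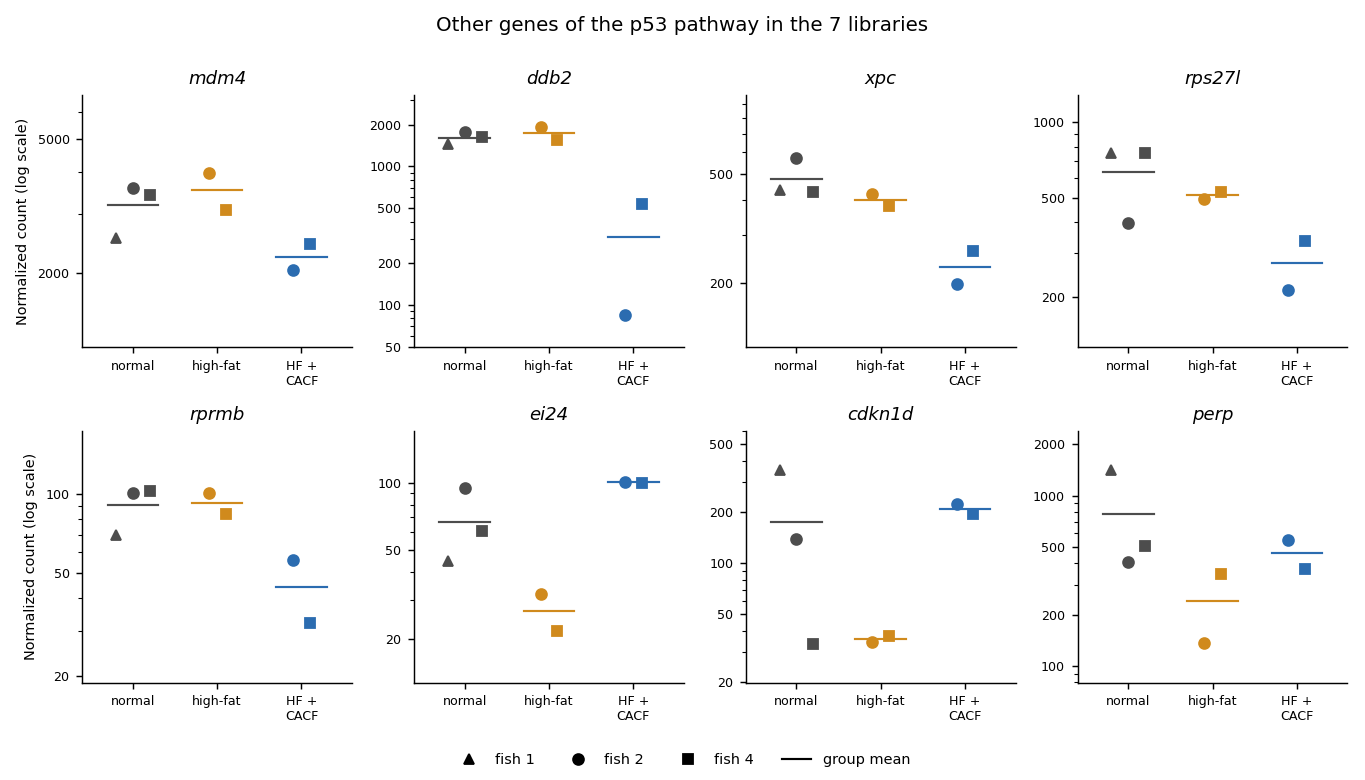
Normalized counts (log scale) of 8 further genes of the p53 pathway in each of the 7 libraries, by diet group, with marker shape for fish number and a line at each group mean. In these counts mdm4, ddb2, xpc, rps27l and rprmb are lower in both CACF libraries than in the other 5. In TPM this holds for ddb2 and rps27l only. Of the 57 further genes, 8 were lower without overlap for CACF against normal diet and 11 for CACF against high-fat diet. Of all genes tested 16.7% and 23.2% were. The share of all genes lower than all 5 other libraries was not computed. In normalized counts fas (few reads), spata18 and polh, not drawn here, were also lower in both CACF libraries than in the other 5.

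Among the further arrest genes, normal-diet fish 1 had the highest normalized count in 7 of 12, among apoptosis genes in 6 of 15. It was highest among metabolic and stress genes in 4 of 9, among regulators in 2 of 14 and among repair genes in 0 of 7. Of all genes tested it was highest for 21.2%. It was also the lowest library for 11 of the 57 further genes, 6 of them regulators, and for 21.2% of all genes. The genes highest in normal-diet fish 1 included btg2, pmaip1 and sesn2 (chosen after their values were seen). btg2, an antiproliferative gene, had 9900 normalized counts there, 5612 in CACF fish 2 and 372 to 647 in the other 5. pmaip1, which encodes the apoptosis inducer Noxa, had 493 there against 22.3 to 78.2 in the other 6, and sesn2, a second sestrin gene, had 307 against 49.0 to 84.8. For comparison, normal-diet fish 1 was the highest library for 16 of 20 immediate early, 12 of 12 heat shock and 17 of 18 glucocorticoid and fasting genes, the last including sesn1. The part of these responses in the values of the p53 targets was not tested. Without that library the median log2 fold change of the 10 p53 targets moved from -0.72 to -0.25 for high-fat against normal diet.

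By correlation of log2(normalized count + 1) over the 7 libraries, among 16717 genes with a gene name, the patterns most like mdm2 were those of cc2d1b, lxn and nop53 (Pearson r = 0.996, 0.995 and 0.995), and those most like cdkn1a included cyp2aa1 and svilc (0.987 and 0.985). Over so few libraries, which share their groups and the 2 libraries that stood apart, 243 and 48 genes had an r above 0.95.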

How the data were processed

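Stranded mRNA libraries of whole larvae were sequenced, per the labels' protocols. Per the submitters' processing notes, the tools included FastQC, Trimmomatic, HISAT2 and DESeq2. File names give GRCz11 as the build, and neither the counting program nor its use of strand is stated there. The authors deposited 2 tables with a normalized count (a signal) per gene and library, log2 fold changes with their standard errors and Wald statistics (scores), p-values and adjusted p-values, and per library a gene table headed FPKM, TPM and coverage (signal). TPM of the reference genes summed to 739551 to 884988 on top of 1000000 for assembled loci, so it was not used for the main test. Both tables held the same 3 normal-diet columns, so 1 scaling covers all 7 libraries. Dividing by the lowest step of each library turned 100% of normalized counts into whole reads (tolerance 0.001).

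limma 3.58.1 in R 4.3.3 was fitted to all 7 libraries (a mean per group, variance trend, 4 residual degrees of freedom). edgeR 4.0.16 and DESeq2 1.42.0 were run on the recovered reads. The fit was tested on simulated reads with known changes. Of 2-fold changes it called 3.12% for high-fat against normal diet, 1.54% for CACF against normal diet and 0% for CACF against high-fat diet. Of 4-fold changes it called 25%, 28.8% and 15.2%, and of 16-fold changes 87.5%, 77.3% and 75.4%. Alternatives were pseudocounts of 0.1 and 5, filters of 0 and 50 counts, TMM, quantile, TPM, FPKM, robust moderation, the compared groups only, a replicate block and each library left out. Added after seeing the data were both outlying libraries left out together and the baxa genes summed. Named genes are the members, the 4 smallest p-values of the wider list per comparison and the 3 genes most like mdm2 and cdkn1a; others are marked. A few results are not reported here. Members, lists and tests were chosen with earlier results of these data known.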

Additional observations from a re-analysis of the deposited data

How the results depend on the processing

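No p53 target gene passed under any alternative in any comparison; the lowest adjusted p of the alternatives was 0.0667, for mdm2 with CACF against normal diet in limma without CACF fish 4 (log2 fold change -1.34). Counts over all genes were less stable. For high-fat against normal diet they were 0 under every alternative, where the authors' deposited table had 60 genes under 0.05. For CACF against normal diet the 31 calls became 14 in TPM, 14 in FPKM, 52 with robust moderation, 2 with the compared groups only, 4 in edgeR, 702 in DESeq2 (141 higher, where all 31 were lower) and 5 without normal-diet fish 1 and CACF fish 2, and leaving out 1 library gave 0 to 375, the highest without CACF fish 4. For CACF against high-fat diet the 3 calls, all lower, became 1 in TPM, 1 in FPKM, 5 with robust moderation, 0 with the compared groups only, 0 in edgeR and 1003 in DESeq2 (727 higher), and leaving out 1 library gave 0 to 155, the highest again without CACF fish 4. The causes were not tested.

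Signs of member fold changes turned, including that of gadd45aa for CACF against normal diet (-1.63 with all libraries). For high-fat against normal diet, phlda3 was 0.0396 after quantile normalization and 0.0407 in FPKM, baxa (ENSDARG00000020623) was 0.051 in FPKM, and mdm2 was 0.0142 in FPKM and 0.00302 in DESeq2. Without both outlying libraries baxa (ENSDARG00000020623) was 0.0921 and phlda3 0.18. For CACF against normal diet, tp53inp1 was 0.0799 in TPM and 0.0801 in FPKM. Without both outlying libraries, baxa (ENSDARG00000020623) was 0.0668, baxa (ENSDARG00000089129) 0.40, cdkn1a 0.009, gadd45aa 0.0672, sesn1 0.25 and tp53inp1 0.54. For CACF against high-fat diet, ccng1 was 0.14 after quantile normalization, 0.16 in TPM and 0.0817 in FPKM, gadd45aa was 0.0109 in TPM, and sesn1 was -0.38 in TPM and -0.44 in FPKM. Without both outlying libraries baxa (ENSDARG00000089129) was 0.12 and gadd45aa 0.23.

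Leaving out 1 library gave these ranges. For high-fat against normal diet, baxa (ENSDARG00000020623) ran from -0.26 to 0.12, mdm2 from -0.0672 to 0.0565 and phlda3 from -0.26 to 0.18. For CACF against normal diet, baxa (ENSDARG00000089129) ran from -2.0 to 0.58, cdkn1a from -0.91 to 0.12, gadd45ba from -1.31 to 0.38 and tp53inp1 from -0.71 to 0.32. For CACF against high-fat diet, baxa (ENSDARG00000089129) ran from -2.46 to 0.12, ccng1 from -0.30 to 0.25, cdkn1a from -0.0572 to 1.45, gadd45aa from -0.92 to 0.34, phlda3 from -0.48 to 0.0373 and sesn1 from -0.13 to 1.17, while gadd45ba ran from 0.31 to 1.53 and tp53inp1 from 0.13 to 1.16 with no turn. The median of the wider list for high-fat against normal diet turned to 0.0191 with the filter of 50 counts and to 0.0215 after quantile normalization. Where 1 library of a pair was left out, the lone library is assumed to vary like the other groups. FPKM passed 9 and the filter of 50 counts 8 of the 10 genes. At these depths the cdkn1a and the lesser baxa values rest on few reads.

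With the fish number as a replicate block, no p53 target gene passed either, and the calls over all genes were 112 for CACF against normal diet (11 higher) and 705 for CACF against high-fat diet (460 higher). Of the wider list the block called 3 genes for CACF against high-fat diet that the fit without it did not, namely zmat3, ddb2 and cdkn1d (adjusted p = 0.0461, 0.0472 and 0.0483). The block turned baxa (ENSDARG00000020623) to 0.0921 and phlda3 to 0.18 for high-fat against normal diet, and cdkn1a to 0.12, gadd45ba to 0.38 and tp53inp1 to 0.0274 for CACF against normal diet, the values without normal-diet fish 1, which has no partner. Deviations from group means of libraries with the same number correlated at 0.183 to 0.416, but each comparison has only 2 pairs and the labels do not say what a number shares. In a group of 2 libraries these deviations mirror each other. The 2 correlations of CACF with high-fat libraries, both 0.269, are therefore equal by construction and count as a single value.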
